A study of Mus musculus with 2 samples.

Results

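The genes described here are 10 markers and regulators of splenic marginal zone B cells, read across the cells of 1 spleen library from M694I knock-in mice and 1 from wild-type mice. Notch2, Dtx1, Cr2, Cd1d1, Cd9, S1pr3, Myof, Cd36, Plac8 and Dnase1l3 were listed by symbol, and all 10 were found among the 32285 features of the deposited tables. The study used droplet single-cell RNA sequencing (10x Genomics 3' v3.1 chemistry) on splenocytes of age-matched animals. The knock-in mice carry the MEFV M694I change, a substitution in pyrin known from familial Mediterranean fever, and the wild-type controls lack it. The labels give no sex, age or strain, and the titles name 1 mouse for each library, so that a difference between the libraries may be one between 2 animals or 2 preparations as well as one between genotypes. With 1 library per genotype there is no test of genotype: values are given with 95% intervals for counting error only, and they say nothing of the spread between animals. PCR duplicates had been collapsed by molecular identifiers, so a count is a UMI.

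Marginal zone B cells sit at the border of the splenic follicle, where they meet blood-borne antigen. In mice their development needs the receptor NOTCH2, which is cut when it binds a Delta-like ligand on stromal cells and then acts with the DNA-binding protein RBPJ to switch on target genes. Dtx1 (Deltex) is a known Notch target in these cells. Cr2 encodes complement receptor CD21, Cd1d1 the lipid-presenting CD1d and Cd9 a tetraspanin, all high on the surface of marginal zone B cells, and S1pr3 encodes a receptor for sphingosine 1-phosphate. Cd36 encodes a scavenger receptor, Dnase1l3 a secreted DNase, Myof the membrane protein myoferlin and Plac8 a small cysteine-rich protein.

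All 10 are protein-coding genes, placed here on GRCm38 by the GENCODE M21 annotation. Notch2 lies on chr3:98013527-98150361 (plus strand) and Dtx1 on chr5:120680202-120711927 (minus strand). The gate genes are Cr2 on chr1:195136811-195176716, Cd1d1 on chr3:86995834-86999441, Cd9 on chr6:125460266-125494791 and Myof on chr19:37899036-38043577, all on the minus strand. The other readouts are S1pr3 on chr13:51408639-51422797 (plus strand), Cd36 on chr5:17781690-17888801, Plac8 on chr5:100553725-100572245 and Dnase1l3 on chr14:7964533-7994573 (minus strand).

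Promoter sequence was looked at because RBPJ is the factor through which NOTCH2 acts. RefSeq windows on GRCm38.p6 were at hand for 8 of the 10 genes (9 windows, since Plac8 has a pair), and the 250 bases before each start were searched on both strands for TGGGAA, the core of the RBPJ motif. The core was present for Cd36, Cd9 and Cr2, and 21.6% of 32851 promoter windows hold it, so its presence in 3 of 9 windows is a description only. The longer CGTGGGAA was in none of the 9 windows and in 0.636% of all. A match is not a site of binding, and no match says only that these letters are not in this window. The stretches around the matches are given 5′ to 3′ along the gene, with the core in capitals.
Cd36, chr5:17835897-17835979, minus strand: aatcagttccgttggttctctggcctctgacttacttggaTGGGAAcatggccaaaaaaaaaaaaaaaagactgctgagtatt
Cd9, chr6:125494926-125495010, minus strand: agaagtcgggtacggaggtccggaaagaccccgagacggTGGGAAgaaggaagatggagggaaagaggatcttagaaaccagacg
Cr2, chr1:195176894-195176969, minus strand: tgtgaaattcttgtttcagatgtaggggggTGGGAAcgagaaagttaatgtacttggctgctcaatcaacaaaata
The match begins 43 bases before the start for Cd36, 211 bases for Cd9 and 220 bases for Cr2. In the GENCODE M21 annotation of GRCm38 the Cr2 stretch lies outside any gene. The Cd36 stretch lies in an intron of longer Cd36 transcripts, and the Cd9 stretch in an exon of Gm26728, a non-coding transcript of the opposite strand whose exons also overlap those of Cd9.

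The knock-in library held 8374 kept cells with 23729015 UMIs, and the wild-type library 9478 kept cells with 29993419 UMIs. Cells of the knock-in library were shallower, with a median of 2017 UMIs against 2522 in the wild-type library, and 27 barcode sequences occurred in both. Both libraries carried RNA of the Y-linked gene Ddx3y (2396 UMIs in knock-in and 3790 UMIs in wild-type cells) and almost none of Xist (2 UMIs in knock-in and 4 UMIs in wild-type cells). Mefv itself had 75 UMIs in knock-in and 144 UMIs in wild-type cells, and counts of the RNA cannot check a single substitution. Clustering without the 10 genes gave 21 clusters, and the 9 B-like ones held 5457 knock-in and 6397 wild-type cells. 3 of these carry a stage name from other markers: cluster 0 was follicular-like, cluster 1 transitional-like and cluster 4 activated-like. Cluster 6, led by Cd36, Cd9, Nebl, Pik3r4 and Atf3, had 2 of 7 other marginal zone markers in enough cells, under the 3 needed for a name, and a mean marker score of 0.50, under the 0.7 needed. Cluster 11, led by Apoe, 1810046K07Rik, Adm and Bhlhe41, had 4 of the 7 markers but a mean score of 0.44. Both are called by their numbers.

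Marginal zone cells were gated as B-like cells with a UMI of at least 2 of Cr2, Cd1d1, Cd9 and Myof, and the other 6 genes were read out in them. The gate took 287 of 5457 knock-in B-like cells (5.26%, Clopper-Pearson interval 4.68% to 5.89%) and 427 of 6397 wild-type B-like cells (6.68%, 6.08% to 7.31%). The log2 ratio of the shares, knock-in over wild-type, was -0.34 (-0.56 to -0.12). In T-like cells, which should lack the programme, the same gate took 1.34% of knock-in cells and 0.808% of wild-type cells, at a median depth of 2468.5 UMIs in the knock-in and 3042.5 UMIs in the wild-type library. Other classes passed at shares as high as or above those of B-like cells: plasma cell-like cells in 17.7% of knock-in and 14.7% of wild-type cells, macrophage-like cells in 8.64% of knock-in and 15.6% of wild-type cells, and dendritic-like cells in 5.56% of knock-in and 10.7% of wild-type cells. Plasma cell-like cells were deeper, with a median of 13339.5 UMIs in the knock-in and 11342.5 UMIs in the wild-type library. For dendritic-like and macrophage-like knock-in cells the Clopper-Pearson intervals (2.57% to 10.3% and 3.55% to 17.0%) include the B-like share. Those of wild-type dendritic-like cells (6.66% to 16.0%) and plasma cell-like cells (5 of 34 cells, 4.95% to 31.1%) include the wild-type B-like share as well. A cell that passes is thus read as marginal zone-gated only if it is B-like. It took 2.28% of knock-in and 2.87% of wild-type NK-like cells, 1.66% of knock-in and 4.86% of wild-type monocyte-like cells, and 0 of 55 knock-in and 1.69% of wild-type neutrophil-like cells. B-like cells had a median of 1802 UMIs in the knock-in and 2336 UMIs in the wild-type library. The share depends on depth, since 2 UMIs must be seen, and gated cells were deep: their median was 4323 UMIs in the knock-in and 4867 UMIs in the wild-type library, against 1765 UMIs in ungated knock-in and 2279 UMIs in ungated wild-type cells. With every cell thinned to 1000 UMIs, 0.877% of knock-in and 1.21% of wild-type B-like cells passed, with a log2 ratio of -0.47 (-1.03 to 0.08), so that a difference was not detectable at this depth. Thinning left out 379 knock-in and 157 wild-type cells of all types. Among cells under 5% mitochondrial UMIs the log2 ratio of the shares was -0.07 (-0.37 to 0.23). Mitochondrial UMIs averaged 4.49% per cell in knock-in and 5.26% in wild-type B-like cells, and their part in the difference was not tested.

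**Figure D1:**
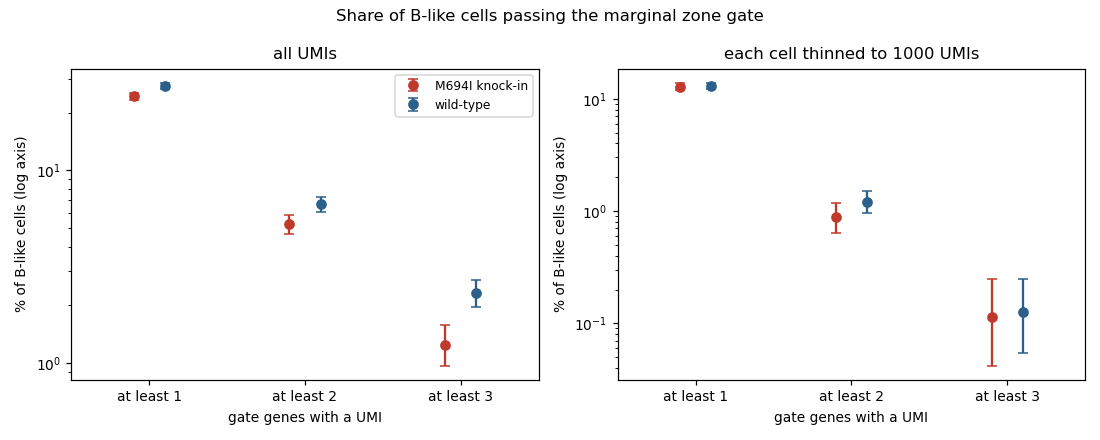
Share of B-like cells (%, log axis) with a UMI of at least 1, 2 or 3 of the 4 gate genes in the M694I knock-in (red) and wild-type (blue) library, with all UMIs (left) and with each cell thinned to 1000 UMIs (right); bars are 95% Clopper-Pearson intervals. At 2 or more genes the knock-in share is 5.26% against 6.68% in wild-type, and after thinning the intervals of the libraries overlap.

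Most gated cells fell in cluster 6, which was made without any of the 10 genes: it held 55.4% of gated knock-in cells and 72.4% of gated wild-type cells. Within cluster 6, 38.5% of knock-in cells and 47.4% of wild-type cells passed the gate. Of 7 markers listed for a marginal zone stage and not in the gate (Tm6sf1, Asb2, Fcrl5, Mzb1, Il9r, Zbtb32 and Ptpn14), 6 had enough UMIs. All 6 were higher in gated than in ungated cells of both libraries by a log2 ratio of at least 0.32, beside 8.53% of 10180 genes. The list was chosen with earlier results of these data known. Its markers were not particular to cluster 6: cluster 11 had 4 of the 7 in enough cells and cluster 6 had 2. The mean scores were 0.44 in cluster 11 and 0.50 in cluster 6. Fcrl5, an Fc receptor-like protein of marginal zone B cells, reached 23.2 CPM in gated and 6.43 CPM in ungated knock-in cells, and 26.0 CPM in gated and 5.60 CPM in ungated wild-type cells. Each gate gene was also read in the cells gated on a pair of the others. In all 24 such readings (6 pairs, the other 2 genes, both libraries) the gene was higher in the gated cells than in the rest, with log2 ratios of 0.71 to 2.37 and counting intervals above 0.

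Of the 6 readout genes, 5 were higher in gated than in ungated B-like cells of both libraries, and Notch2 was not. Cd36, Dnase1l3 and S1pr3 were over 4 times higher, Plac8 about 2 times and Dtx1 under 2 times. A log2 ratio of at least 0.32 in both libraries was reached by 8.53% of 10180 genes with enough UMIs, and a 4-fold one by 0.265%. All levels are CPM, counts per 1000000 UMIs of the same cell group and library, and compare a gene with itself in other cells.

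The scavenger receptor gene Cd36 had 187 UMIs (131.3 CPM) in gated and 218 UMIs (19.5 CPM) in ungated knock-in cells. In the wild-type library Cd36 had 441 UMIs (191.2 CPM) in gated and 317 UMIs (19.5 CPM) in ungated cells. The log2 ratio of gated over ungated was 2.76 (2.47 to 3.04) in knock-in and 3.29 (3.08 to 3.50) in wild-type cells, above those of 99.9% of the 10180 genes in each library. A UMI of Cd36 was seen in 32.4% of gated knock-in and 40.5% of gated wild-type cells, and T-like cells held 3 UMIs of it in the knock-in and 0 UMIs in the wild-type library. Shares of cells with a UMI rise with depth, and gated knock-in cells were shallower than gated wild-type ones. The DNase gene Dnase1l3 had 112 UMIs (78.7 CPM) in gated and 181 UMIs (16.2 CPM) in ungated knock-in cells. In wild-type cells Dnase1l3 had 240 UMIs (104.0 CPM) when gated and 312 UMIs (19.2 CPM) when ungated. Its log2 ratio of gated over ungated was 2.28 (1.93 to 2.63) in knock-in and 2.44 (2.19 to 2.68) in wild-type cells, so the libraries gave like values. S1pr3, whose receptor takes part in holding these cells in the marginal zone, was sparse, with 26 UMIs (18.3 CPM) in gated and 39 UMIs (3.48 CPM) in ungated knock-in cells. In wild-type cells S1pr3 had 51 UMIs (22.1 CPM) when gated and 75 UMIs (4.62 CPM) when ungated. The log2 ratio for S1pr3 was 2.39 (1.62 to 3.14) in knock-in and 2.26 (1.72 to 2.79) in wild-type cells, and no UMI of it was seen in T-like cells, which allows up to 0.565 CPM in the knock-in and 0.429 CPM in the wild-type library.

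Plac8 had the most UMIs of the 10 genes. It reached 1921 CPM in gated and 876.7 CPM in ungated knock-in cells, and 1574 CPM in gated and 753.8 CPM in ungated wild-type cells. The log2 ratio of gated over ungated was 1.13 (1.07 to 1.19) in knock-in and 1.06 (1.01 to 1.12) in wild-type cells. The Notch target Dtx1 had 82 UMIs (57.6 CPM) in gated and 401 UMIs (35.8 CPM) in ungated knock-in cells. In wild-type cells it had 174 UMIs (75.4 CPM) when gated and 703 UMIs (43.3 CPM) when ungated, and a UMI of it was seen in 23.7% of gated and 6.96% of ungated knock-in cells and in 30.2% of gated and 10.3% of ungated wild-type cells. Its log2 ratio was 0.69 (0.33 to 1.03) in knock-in and 0.80 (0.55 to 1.04) in wild-type cells. The shares of cells with a UMI rise with depth, and gated cells were deeper than ungated ones. T-like cells also held Dtx1, at 27.9 CPM in the knock-in and 26.1 CPM in the wild-type library.

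RNA of the receptor Notch2 was not higher in the gated cells. It had 91 UMIs (63.9 CPM) in gated and 856 UMIs (76.4 CPM) in ungated knock-in cells, with a log2 ratio of -0.26 (-0.59 to 0.06). In wild-type cells it had 134 UMIs (58.1 CPM) when gated and 1338 UMIs (82.4 CPM) when ungated, with a log2 ratio of -0.50 (-0.77 to -0.25). Only the wild-type interval excluded 0, and 20.3% of the 10180 genes had a smaller ratio in wild-type cells and 36.1% in knock-in cells. The receptor's activity is set by cleavage of the protein and was not measured.

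**Figure D2:**
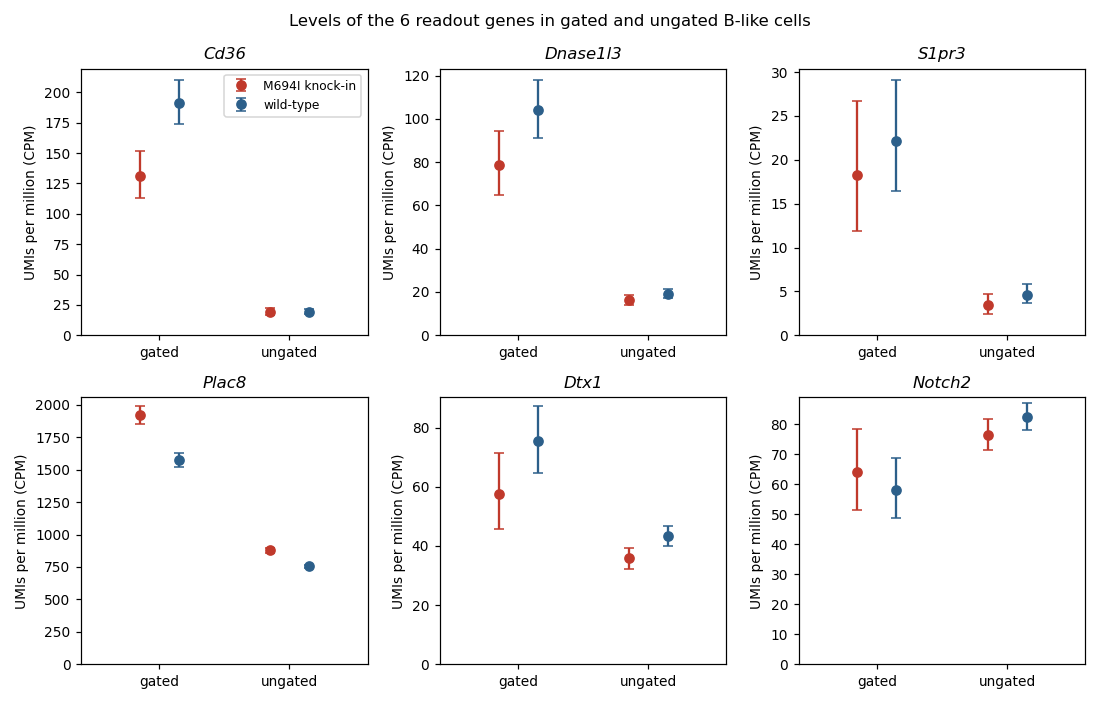
Level (CPM, each panel with its own axis from 0) of the 6 readout genes in gated and ungated B-like cells of the M694I knock-in (red) and wild-type (blue) library; points are sums over cells and bars 95% Poisson intervals. Cd36, Dnase1l3, S1pr3, Plac8 and Dtx1 are higher in gated cells of both libraries, and Notch2 is not.

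Apart from Notch2, the readouts were higher with each further gate gene seen in a cell, from 0 to 3, in both libraries. The intervals of some neighbouring classes overlapped for Dtx1 and S1pr3. Those of cells with 2 and 3 gate genes also overlapped for Cd36 in both libraries, Dnase1l3 in knock-in cells and Plac8 in wild-type cells. Cd36 had 10.2, 43.5, 121.3 and 147.9 CPM in knock-in cells with a UMI of 0, 1, 2 and 3 gate genes, and 13.1, 36.0, 183.4 and 202.8 CPM in the matching wild-type cells. Dnase1l3 had 12.4, 25.9, 71.2 and 93.5 CPM in the same 4 classes of knock-in cells, and 12.2, 37.1, 83.0 and 136.6 CPM in those of wild-type cells. Notch2 had 79.1, 69.4, 66.4 and 54.3 CPM in knock-in cells and 84.1, 78.1, 46.9 and 78.4 CPM in wild-type cells. The classes with 3 gate genes held 59 knock-in and 122 wild-type cells, and those with all 4 held 9 knock-in and 25 wild-type cells and are not compared.

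**Figure D3:**
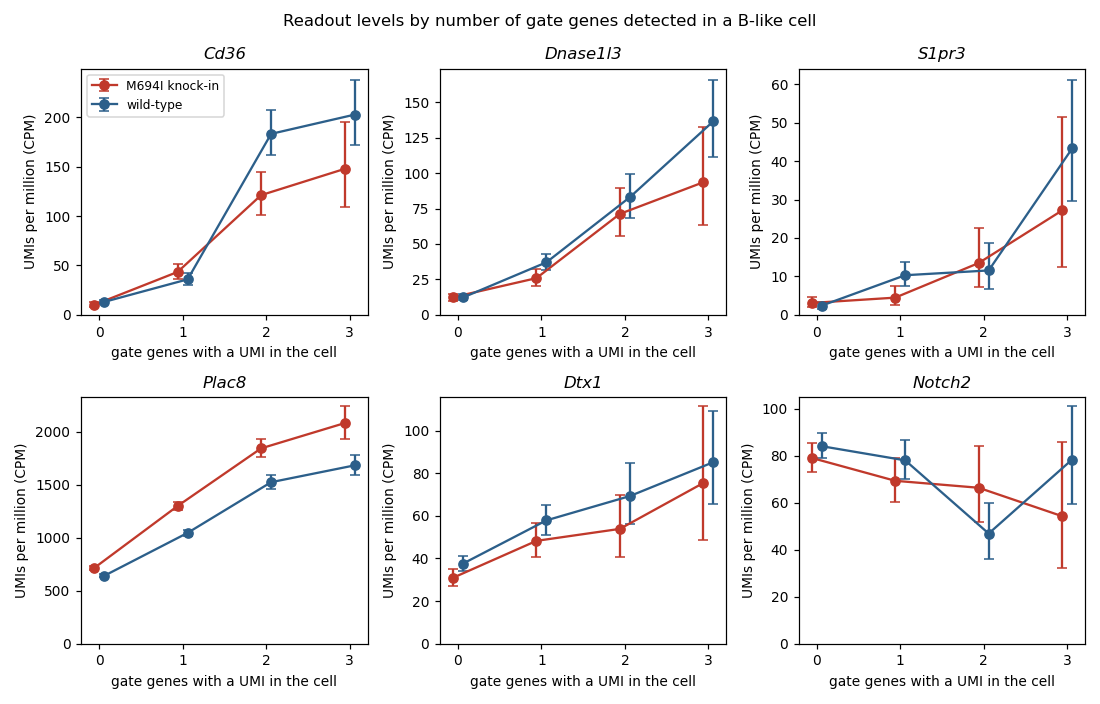
Level (CPM, axes from 0) of the 6 readout genes in B-like cells with a UMI of 0, 1, 2 or 3 of the 4 gate genes, in the M694I knock-in (red) and wild-type (blue) library; bars are 95% Poisson intervals. Cd36, Dnase1l3, S1pr3, Plac8 and Dtx1 are higher with each further gate gene in both libraries, and Notch2 is not.

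Inside cluster 6 the ratios were smaller, a split chosen after seeing the data. Cells of that cluster that passed the gate exceeded those that did not by log2 ratios of 0.81 in knock-in and 1.32 in wild-type cells for Cd36, and of 1.54 in knock-in and 1.14 in wild-type cells for Dnase1l3. The other 4 readouts did not reach 0.32 in both libraries there, and Dtx1 turned to -0.11 in wild-type cells. Over all gated and ungated B-like cells, marker lists of cell types were summed. The B cell list (8 markers, all detected) reached 8092 CPM in gated and 10151 CPM in ungated knock-in cells. In wild-type cells it reached 6958 CPM when gated and 8967 CPM when ungated. Of its markers, 2 of 8 in knock-in and 0 of 8 in wild-type cells had the higher level when gated. Markers of other cell types were summed in the same way. The T cell list (6 markers, all detected) reached 494.4 CPM in gated and 548.2 CPM in ungated knock-in cells, and 343.3 CPM in gated and 434.3 CPM in ungated wild-type cells. Although this sum was lower in gated cells, 5 of its 6 markers in knock-in and 4 of 6 in wild-type cells had the higher level when gated. The NK list (7 markers, 5 detected in gated cells of each library, Ncr1 and Klrb1c at 0) reached 19.7 CPM in gated and 6.87 CPM in ungated knock-in cells, and 23.8 CPM in gated and 8.31 CPM in ungated wild-type cells. The macrophage list (8 markers, 6 detected in gated knock-in and 7 in gated wild-type cells) reached 22.5 CPM in gated and 12.3 CPM in ungated knock-in cells, and 32.1 CPM in gated and 8.25 CPM in ungated wild-type cells. The neutrophil list (6 markers, 6 detected in gated knock-in and 3 in gated wild-type cells) reached 33.0 CPM in gated and 3.21 CPM in ungated knock-in cells, but 3.03 CPM in gated and 7.58 CPM in ungated wild-type cells. In the dendritic list (10 markers, 6 detected in gated cells of each library) Xcr1, Clec9a, Cd209a and Siglech had no UMI in gated cells. The list reached 286.6 CPM in gated and 255.9 CPM in ungated knock-in cells, and 335.5 CPM in gated and 289.5 CPM in ungated wild-type cells. Although this sum was higher in gated cells, only 2 of its 10 markers in knock-in and 1 of 10 in wild-type cells had the higher level when gated. The erythroid list (3 markers detected in gated cells of each library) went opposite ways in the libraries, with 15 UMIs in gated knock-in cells, a lower level than the 135.1 CPM of ungated ones, but 295 UMIs (127.9 CPM) in gated and 25.2 CPM in ungated wild-type cells. The monocyte list (8 markers, 5 detected in gated knock-in and 4 in gated wild-type cells) did so too, at 252.1 CPM in gated and 311.3 CPM in ungated knock-in cells, and 328.2 CPM in gated and 253.7 CPM in ungated wild-type cells. The plasma cell list (6 markers, 5 detected, Tnfrsf17 at 0) reached 127.1 CPM in gated and 107.0 CPM in ungated knock-in cells, and 126.6 CPM in gated and 99.3 CPM in ungated wild-type cells. Of the 3 platelet markers Pf4 and Ppbp were at 0, and the list had 1 UMI in gated knock-in and 2 UMIs in gated wild-type cells. The part of these other cells in the readouts was not tested.

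By the rule for naming genes, the 10 genes with the largest rise in the gate that was shared by both libraries were Cd36 and Dnase1l3 themselves, then Pik3r4, Tent5c, Cd274, Id2, Tm6sf1, Ahr, Marcks and Ccl4. Pik3r4, a subunit of the class III PI3 kinase complex, had 73.0 CPM in gated and 20.3 CPM in ungated knock-in cells, and 97.1 CPM in gated and 22.3 CPM in ungated wild-type cells. Id2, an inhibitor of E proteins, had 120.1 CPM in gated and 46.9 CPM in ungated knock-in cells, and 127.5 CPM in gated and 43.6 CPM in ungated wild-type cells. Ahr, the aryl hydrocarbon receptor, had 99.7 CPM in gated and 40.6 CPM in ungated knock-in cells, and 133.5 CPM in gated and 35.3 CPM in ungated wild-type cells. The 5 with the largest shared fall were Gadd45g, Vpreb3, Cdkn2d, Cpm and Fcer2a. Fcer2a, which encodes the follicular marker CD23, had 76.6 CPM in gated and 214.7 CPM in ungated knock-in cells, and 84.5 CPM in gated and 212.6 CPM in ungated wild-type cells.

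Genes of the Notch pathway other than the members were read from a list of 36, of which 27 had enough UMIs in both libraries. By the limit of 0.32 in both libraries 4 were higher and 4 lower in gated cells, where 8.53% of all genes were higher and 16.7% lower. The higher ones were Hes5 and Nrarp, both known Notch target genes, with Maml2, a co-activator of the RBPJ complex, and Dtx3. Hes1, another Notch target on the list, did not reach the limit and went opposite ways in the libraries. It had 17.6 CPM in gated and 21.3 CPM in ungated knock-in cells (-0.28), and 35.5 CPM in gated and 30.5 CPM in ungated wild-type cells (0.22). Hes5 had 23.2 CPM in gated and 9.82 CPM in ungated knock-in cells, and 15.2 CPM in gated and 8.31 CPM in ungated wild-type cells. The lower ones were Notch1, Maml3, Lfng and Itch. Lfng, a glycosyltransferase that modifies Notch receptors, had 8.43 CPM in gated and 19.4 CPM in ungated knock-in cells, and 10.4 CPM in gated and 24.1 CPM in ungated wild-type cells. In a list of 45 genes of B cell fate and positioning, 10 of 43 with enough UMIs were higher and 16 lower in gated cells, beside the same 8.53% and 16.7% of all genes. Of the 10 higher, 6 (Fcrl5, Tm6sf1, Mzb1, Il9r, Zbtb32 and Ptpn14) are the marginal zone markers already described. The integrin subunit gene Itgb1 was among the higher, and the chemokine receptor gene Ccr7 and Klf2 were among the lower, with Ccr7 at 338.5 CPM in gated and 616.0 CPM in ungated knock-in cells and at 368.5 CPM in gated and 578.5 CPM in ungated wild-type cells.

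Between the libraries, 3 of the 6 readouts were called lower in gated knock-in than in gated wild-type cells and none higher, where a call needs a log2 ratio of 0.32 in size and an interval that excludes 0. Of 8186 genes with at least 20 UMIs in the gated cells, 10.3% were called lower and 8.4% higher, and the median log2 ratio of all of them was -0.05. Cd36 was called lower, at 131.3 CPM in knock-in and 191.2 CPM in wild-type gated cells, with a log2 ratio of -0.54 (-0.80 to -0.29). The cell with most Cd36 UMIs gave 4.81% of them in the knock-in and 7.48% in the wild-type library, and without these cells the log2 ratio was -0.50. The erythroid list differed the same way in these cells, with 15 UMIs in knock-in and 295 UMIs in wild-type gated cells, and its part in the Cd36 value was not tested. Dnase1l3 was called lower, at 78.7 CPM in knock-in and 104.0 CPM in wild-type gated cells, with a log2 ratio of -0.40 (-0.74 to -0.07). Dtx1 was called lower at the very edge of its interval, at 57.6 CPM in knock-in and 75.4 CPM in wild-type gated cells, with a log2 ratio of -0.39 (-0.786 to -0.002). It was no longer called with TMM factors (-0.36, -0.76 to 0.02) or with immunoglobulin left out of the total (-0.38, -0.78 to 0.002). Plac8 was not called, at 1921 CPM in knock-in and 1574 CPM in wild-type gated cells, although its interval was narrow (0.29, 0.22 to 0.36). Notch2 had a log2 ratio of 0.14 (-0.26 to 0.53) and S1pr3 one of -0.28 (-1.02 to 0.43), both with intervals that include 0.

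These calls depended on which cells were taken. In gated cells of cluster 6 alone, with 159 knock-in and 309 wild-type cells, 1 of the 6 was called: Cd36, at 168.0 CPM in knock-in and 231.6 CPM in wild-type cells (-0.46, -0.76 to -0.18), where 6.61% of all genes were called lower and 6.64% higher. There Dnase1l3 had a log2 ratio of -0.18 and Dtx1 one of -0.25, neither called. In gated cells of the other B-like clusters Cd36 had 84.6 CPM in knock-in and 77.7 CPM in wild-type cells (0.12, -0.47 to 0.72). Plac8 was called higher in those cells, at 1809 CPM in knock-in and 1218 CPM in wild-type cells (0.57, 0.44 to 0.71). Their clusters differed between the libraries: cluster 0 held 16.0% of all gated knock-in and 9.13% of all gated wild-type cells. Cluster 11, where Plac8 was highest, held 12.9% of all gated knock-in and 5.39% of all gated wild-type cells. The part of this mix in the Plac8 value was not tested. Among cells under 5% mitochondrial UMIs the log2 ratio was -0.67 (-0.995 to -0.35) for Cd36, -0.71 (-1.15 to -0.27) for Dnase1l3 and -0.11 (-0.62 to 0.41) for Dtx1. Among gated cells of 5% to 10% mitochondrial UMIs Dtx1 had 49.3 CPM in knock-in and 83.0 CPM in wild-type cells (-0.75, -1.54 to -0.04), and the intervals of Cd36 and Dnase1l3 included 0.

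**Figure D4:**
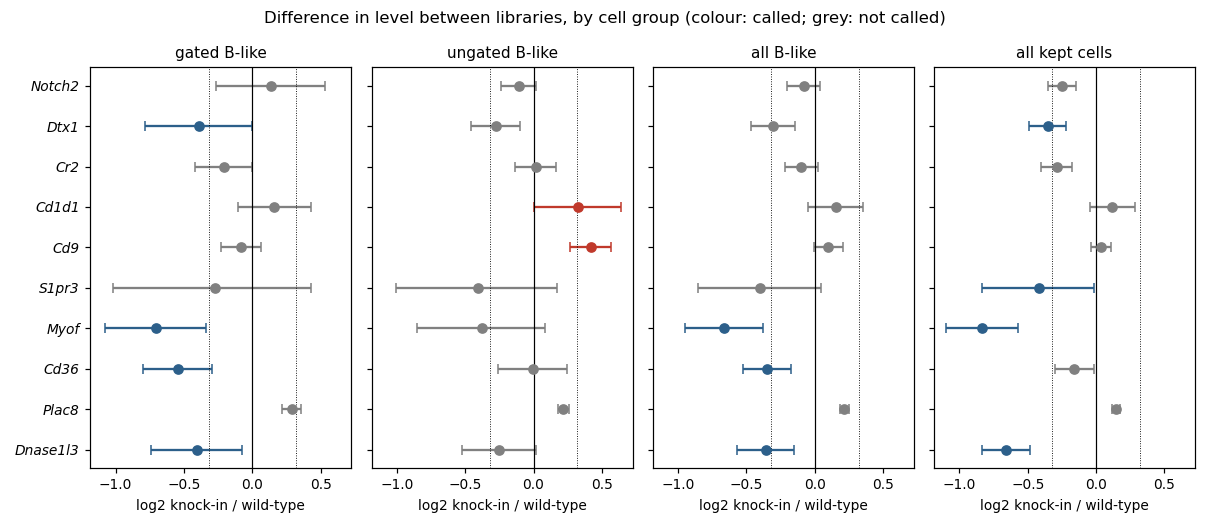
Log2 ratio of the level in the M694I knock-in over the wild-type library for the 10 genes in gated, ungated and all B-like cells and in all kept cells; bars are 95% counting intervals, dotted lines mark 0.32 in size, blue points were called lower, red higher and grey neither. Myof lies lowest in gated cells, all B-like cells and all kept cells, and Plac8 lies above 0 in every panel.

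The 4 gate genes were used to choose the gated cells, so their levels there are a description. Cr2 had 205.1 CPM in knock-in and 236.7 CPM in wild-type gated cells, Cd9 414.4 CPM in knock-in and 438.7 CPM in wild-type cells, Cd1d1 141.2 CPM in knock-in and 126.2 CPM in wild-type cells, and Myof 59.7 CPM in knock-in and 97.1 CPM in wild-type cells. Myof was also lower where the gate did not use it. In cells gated on Cd1d1 and Cd9 it had 18 UMIs (33.7 CPM) in 96 knock-in cells and 52 UMIs (62.5 CPM) in 137 wild-type cells, with a log2 ratio of -0.89 (-1.75 to -0.10). In cells gated on Cr2 and Cd9 the ratio was -0.51 (-1.14 to 0.10), and in cells gated on Cr2 and Cd1d1 it was -0.53 (-1.29 to 0.18), both with intervals that include 0.

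Over all B-like cells, where no gate enters, 3 of the 10 genes were called lower in the knock-in library and none higher, against 15.5% of 11560 genes lower and 11.1% higher. Myof had 146 UMIs (11.6 CPM) in knock-in and 339 UMIs (18.3 CPM) in wild-type B-like cells, with a log2 ratio of -0.66 (-0.95 to -0.38). Cd36 had 32.1 CPM in knock-in and 40.9 CPM in wild-type cells (-0.35, -0.53 to -0.17), and Dnase1l3 had 23.2 CPM in knock-in and 29.8 CPM in wild-type cells (-0.36, -0.57 to -0.15). Dtx1 was just short of the limit, at 38.2 CPM in knock-in and 47.3 CPM in wild-type cells (-0.31, -0.47 to -0.14). Notch2 was at 75.0 CPM in knock-in and 79.4 CPM in wild-type cells (-0.08, -0.20 to 0.04). With TMM scaling, which moves every ratio of B-like cells up by 0.05, Myof alone was called. Among the B-like clusters Myof, Cd36, Dnase1l3 and Dtx1 were highest in cluster 6, and Notch2 was not. Cluster 6 held 413 of 5457 knock-in B-like cells (4.93% of kept cells) and 652 of 6397 wild-type B-like cells (6.88% of kept cells). A sum over B-like cells cannot separate fewer such cells from less RNA in each.

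In ungated B-like cells 2 of the 10 genes were called higher and none lower, where 10.9% of 11359 genes were called higher and 15.4% lower. Both are gate genes, by which cells were removed, so this count is a description and cannot be weighed against those shares. Cd9 had 63.4 CPM in knock-in and 47.4 CPM in wild-type ungated cells (0.42, 0.27 to 0.57), and Cd1d1 14.1 CPM in knock-in and 11.3 CPM in wild-type cells (0.32, 0.01 to 0.64). The gate removed cells with another gate gene, so these values are for cells in which few of the 4 were seen. Its reach depends on depth, and ungated cells had a median of 1765 UMIs in the knock-in and 2279 UMIs in the wild-type library. Over all B-like cells the log2 ratio was 0.10 (-0.005 to 0.20) for Cd9 and 0.15 (-0.05 to 0.35) for Cd1d1, neither called. Among the B-like clusters Cd9 differed in cluster 11, with 372.5 CPM in knock-in and 254.5 CPM in wild-type cells (0.55, 0.34 to 0.76), and in cluster 1, with 31.8 CPM in knock-in and 20.7 CPM in wild-type cells (0.62, 0.08 to 1.16). Cluster 11 was 3.26% of kept knock-in and 2.68% of kept wild-type cells.

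Across the 9 B-like clusters the genes were highest in different clusters. Cr2 was high in cluster 6 (145.0 CPM in knock-in and 165.0 CPM in wild-type cells) and in the follicular-like cluster 0 (126.7 CPM in knock-in and 138.8 CPM in wild-type cells), and low in cluster 11 (17.9 CPM in knock-in and 17.4 CPM in wild-type cells). S1pr3 and Myof were highest in cluster 6: Myof had 45.2 CPM in knock-in and 68.4 CPM in wild-type cells there, and at most 10.0 CPM in knock-in and 13.0 CPM in wild-type cells of any other B-like cluster. Notch2 was highest in cluster 0, at 101.2 CPM in knock-in and 113.0 CPM in wild-type cells, and had 61.5 CPM in knock-in and 61.4 CPM in wild-type cells of cluster 6. Dnase1l3 was also present in the transitional-like cluster 1, at 34.0 CPM in knock-in and 31.5 CPM in wild-type cells, and in cluster 11, at 43.6 CPM in knock-in and 71.3 CPM in wild-type cells. Plac8 was highest in cluster 11, at 2157 CPM in knock-in and 1780 CPM in wild-type cells.

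Counting clusters in which a gene had at least 20 UMIs over both libraries, Myof had a lower level in knock-in cells in 4 of 4, with log2 ratios of -0.60 to -0.23. Dtx1 had a lower level in 7 of 8, Cd36 in 7 of 8 and Cr2 in 6 of 8. Dtx1 in cluster 6 had 60.9 CPM in knock-in and 80.3 CPM in wild-type cells (-0.40, -0.74 to -0.07), and in cluster 2 it had 20.2 CPM in knock-in and 38.8 CPM in wild-type cells (-0.94, -1.67 to -0.28). Cr2 in the transitional-like cluster 1 had 23.4 CPM in knock-in and 41.0 CPM in wild-type cells (-0.81, -1.35 to -0.30). Plac8 had a higher level in knock-in cells in 8 of 9 clusters, Cd9 in 7 of 9 and Cd1d1 in 6 of 7. Notch2 was higher in 4 and lower in 4 of 8, with 69.6 CPM in knock-in and 95.9 CPM in wild-type cells of cluster 2 (-0.46, -0.84 to -0.10). The clusters share their libraries, so they are not separate readings of genotype, and most of these differences lie within their counting intervals.

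Outside the B-like cells the genes are known from other lineages, and several were found there. Cd9 was highest in neutrophil-like cells, at 994.8 CPM in knock-in and 1682 CPM in wild-type cells, and B-like cells held 46.6% of its knock-in and 51.8% of its wild-type UMIs. Cr2 by contrast had 90.7% of its knock-in and 92.4% of its wild-type UMIs in B-like cells. In macrophage-like cells Cr2 was at 106.0 CPM in knock-in (25 UMIs, 68.6 to 156.4 CPM) and 115.3 CPM in wild-type cells (28 UMIs, 76.6 to 166.7 CPM), and these intervals reach down to its level in B-like cells, 72.8 CPM in knock-in and 77.9 CPM in wild-type cells. Notch2 had 181.0 CPM in knock-in and 141.9 CPM in wild-type monocyte-like cells, above its level in B-like cells of either library. Cd36 had 147.9 CPM in knock-in and 104.9 CPM in wild-type monocyte-like cells, and unnamed cluster 14, led by haemoglobin and cell cycle genes, held 19.6% of Cd36 UMIs in the knock-in and 8.12% in the wild-type library. Cluster 14 was 1.78% of kept knock-in and 0.865% of kept wild-type cells. Plac8 reached 2102 CPM in knock-in and 1973 CPM in wild-type monocyte-like cells.

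Dendritic cells are a known source of the DNase that Dnase1l3 encodes. In dendritic-like cells it had 44 UMIs (57.3 CPM) in 162 knock-in cells and 155 UMIs (140.9 CPM) in 187 wild-type cells, with a log2 ratio of -1.30 (-1.82 to -0.81). It was lower in knock-in cells of both clusters of the class: cluster 13, led by Siglech and Cst3, had 33.5 CPM in knock-in and 98.9 CPM in wild-type cells, and cluster 19, with Fscn1 and Il12b among its leading genes, had 255.8 CPM in knock-in and 429.2 CPM in wild-type cells. Among dendritic-like cells under 5% mitochondrial UMIs it had 35 UMIs (49.0 CPM) in knock-in and 130 UMIs (137.9 CPM) in wild-type cells. Cluster 19 held 32 knock-in and 38 wild-type cells, and it was the smaller part of the class in both libraries. Cluster 13 had Ccr9 and Cd209a as well as Siglech among its leading genes, and a mix of cells within it was not tested. The share of all genes called in dendritic-like cells was not counted.

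**Figure D5:**
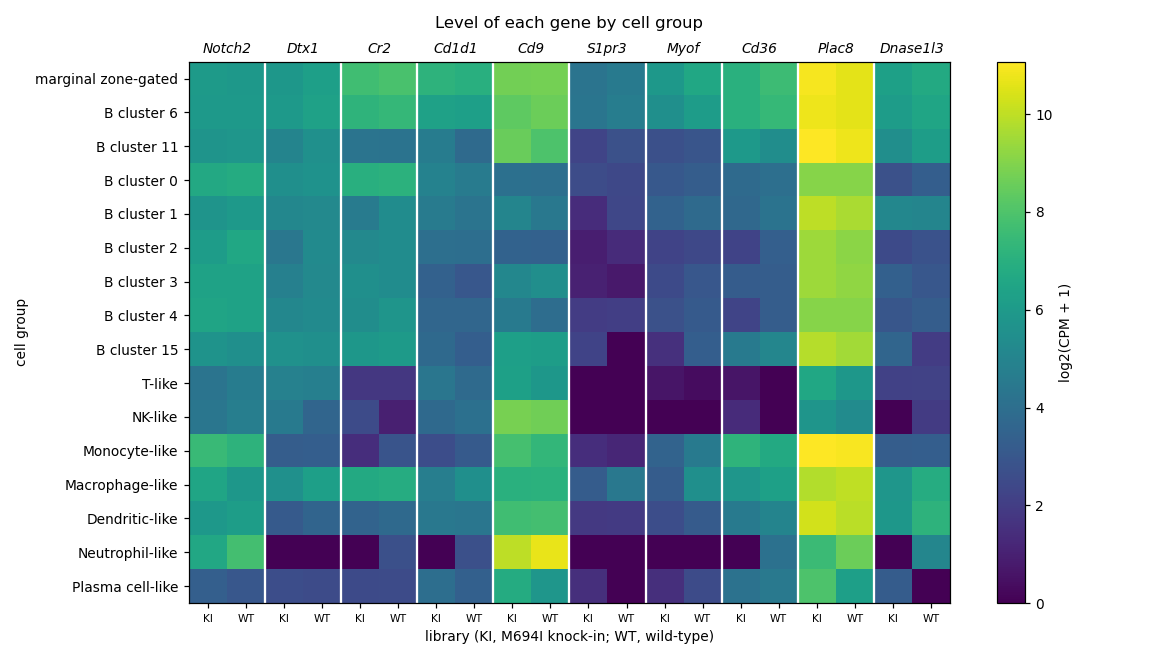
Level of each gene, as log2(CPM + 1), in gated B-like cells, in the B-like clusters with at least 50 cells in each library and in the other named classes, with the M694I knock-in (KI) column left of the wild-type (WT) column. S1pr3 and Myof are highest in gated cells and cluster 6, Cr2 is also high in cluster 0, Plac8, Cd9 and Notch2 are also high in myeloid classes, and Dnase1l3 is lower in knock-in than in wild-type dendritic-like cells.

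Summed over all kept cells, 4 of the 10 genes were called lower in the knock-in library and none higher, against 19.9% of 13311 genes lower and 12.4% higher. These were Dtx1 (-0.35, -0.49 to -0.22), S1pr3 (-0.42, -0.83 to -0.01), Myof (-0.83, -1.10 to -0.57) and Dnase1l3 (-0.66, -0.83 to -0.49). S1pr3 rested on 81 knock-in and 137 wild-type UMIs. A share of immunoglobulin RNA enters these totals: plasma cell-like cells were 1.89% of kept knock-in and 0.359% of kept wild-type cells, and held 2158226 knock-in and 419410 wild-type UMIs. With immunoglobulin left out of the total, Myof and Dnase1l3 were called and the other 2 were not.

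The 2 gene lists were also compared between the libraries over B-like cells. Of 36 other Notch pathway genes 30 had enough UMIs, and 2 were called higher, 6 lower and 22 neither, with a median log2 ratio of -0.18 beside -0.05 over all genes. Over all genes in these cells 11.1% were called higher and 15.5% lower. By the rule of size the list's 4 named genes are Notch4, Rfng, Maml2 and Notch1. Notch1 had 77 UMIs in knock-in and 170 UMIs in wild-type cells (a log2 ratio of -0.59, with an interval below 0) and Maml2 8.79 CPM in knock-in and 13.3 CPM in wild-type cells (-0.60, -0.94 to -0.27). Rfng, another glycosyltransferase of Notch receptors, had 5.46 CPM in knock-in and 3.56 CPM in wild-type cells (0.62, 0.11 to 1.13), and Notch4 had 5 UMIs in knock-in and 16 UMIs in wild-type cells and was not called. Of the Notch targets, Hes1 had 20.9 CPM in knock-in and 31.2 CPM in wild-type cells (-0.58, -0.79 to -0.36), and Hes5 had 11.3 CPM in knock-in and 9.17 CPM in wild-type cells (0.30, -0.03 to 0.63). Rbpj itself was at 28.5 CPM in knock-in and 38.9 CPM in wild-type cells (-0.45, -0.64 to -0.27). Hes1, Hes5 and Rbpj were chosen for mention after their values had been seen.

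Of the 45 fate and positioning genes 44 had enough UMIs, and 5 were called higher, 10 lower and 29 neither, with a median of -0.09 and the same background of 11.1% higher and 15.5% lower. The 4 named are Zbtb32 (97 UMIs in knock-in and 75 UMIs in wild-type cells, 0.93, 0.48 to 1.38), Irf4, Rac2 and Mzb1. Irf4, a transcription factor of activated B cells, had 103.0 CPM in knock-in and 164.3 CPM in wild-type cells (-0.67, -0.77 to -0.58). It is a leading gene of the activated-like cluster 4, which was 5.54% of kept knock-in and 11.9% of kept wild-type cells. The part of that cluster in the Irf4 value was not tested. Rac2, which encodes a small GTPase of blood cells, had 576.3 CPM in knock-in and 369.4 CPM in wild-type cells (0.64, 0.59 to 0.69). Mzb1, an endoplasmic reticulum chaperone of marginal zone B and plasma cells, had 406.9 CPM in knock-in and 263.9 CPM in wild-type cells (0.62, 0.57 to 0.68). In gated cells as well Mzb1 was higher, at 720.6 CPM in knock-in and 421.4 CPM in wild-type cells. Plasma cell-like cells were 1.89% of kept knock-in and 0.359% of kept wild-type cells. They are a separate class, so the UMIs counted in them are not in these Mzb1 values. Any other part of theirs in these values was not tested.

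By the same kind of rule the genes that differed most between gated cells of the libraries were named. S100a6 (167.2 CPM in knock-in and 55.5 CPM in wild-type gated cells), H2-T22, Cst3, Prdx3 and Ctsh were highest in knock-in cells. Single cells gave 18.9% of knock-in and 31.2% of wild-type S100a6 UMIs, and 20.3% of knock-in Cst3 UMIs. Nr4a3, an immediate-early nuclear receptor (34.4 CPM in knock-in and 88.9 CPM in wild-type gated cells), Lars2, Eif3j1, Bcar3 and Mirt1 were lowest. Over all B-like cells the log2 ratio of S100a6 was 0.53 and that of Nr4a3 -0.75.

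The likeness of each member to other genes was taken as Pearson's r of log2(CPM + 10) over the 21 clusters within each library, as a description over clusters that share a library and differ in depth. Cr2 was most like Hs3st1 (r = 0.94 in knock-in and 0.94 in wild-type clusters), then Cd22 and Bank1. Plac8 was most like Ly86 (r = 0.89 in knock-in and 0.90 in wild-type), Notch2 most like Plaur (0.90 in knock-in and 0.87 in wild-type) and Dnase1l3 most like Sema7a (0.87 in knock-in and 0.87 in wild-type). Myof had Cd36 among its 3 closest genes (r = 0.64 in knock-in and 0.81 in wild-type), beside Hpgds and Pik3r4, and S1pr3 was most like Pik3r4 (0.68 in knock-in and 0.75 in wild-type). Cd36 was most like Lgmn, Dtx1 most like Ahctf1, Cd9 most like Fgl2 and Cd1d1 most like Rad23b. Notch2 and Dtx1 showed almost no likeness to each other, with r = 0.06 over knock-in and -0.02 over wild-type clusters.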

How the data were processed

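Per the file headers, the authors' deposited tables of raw UMI counts came from Cell Ranger 6.1.2. The submitters' notes on processing instead list Cell Ranger 7.1.0, with Seurat 5.0.3 and mm10. Annotation and strand settings of the counting are not known here. Exons of Cd9 and S1pr3 overlap those of non-coding genes on the opposite strand (Gm26728 and Gm32834), and exons of Notch2 overlap Gm42820. Cd1d1 has a close copy, Cd1d2, and the counting of reads shared with it is not stated. Of the features, 99.8% matched GENCODE M21.

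Cells with at least 500 UMIs, 200 genes and under 10% mitochondrial UMIs were kept, and cells with a Scrublet score over 0.35 were removed as doublets (209 knock-in, 2.44%, and 255 wild-type, 2.62%). That limit was set after the automatic threshold had marked 1 knock-in cell and 157 wild-type cells. Counts scaled to 10000 per cell, 2000 variable genes without the 10 members, 30 principal components, 15 neighbours and Leiden clustering (scanpy 1.11.5, leidenalg 0.10.2, resolution 1) gave the clusters, named from marker lists by the class with the highest mean scaled level among those with at least 3 markers in 10% of cells. The scoring, and a minimum of 0.7 for B stages, were set after the clusters had been seen.

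UMIs were summed per library and cell group and scaled to CPM. Sums carry exact Poisson, shares Clopper-Pearson and log2 ratios exact conditional binomial intervals at 95%. A call needed 20 UMIs over both libraries, a log2 ratio of 0.32 in size and an interval that excludes 0. Where a group had no UMI of a gene, 3 counts were taken as its upper limit. Ratios and calls were tested on simulated counts. Genes outside the members were named by rank of log2 ratio at a mean CPM of at least 50 and 100 UMIs, 10 higher and 5 lower for gated over ungated, and 5 each way for knock-in over wild-type; of each list the 4 with the largest ratio at 20 UMIs, and for likeness the 3 with the highest r at a mean CPM of at least 10. The 10 genes, the lists and the alternatives were chosen with earlier results of these data known. Alternatives were stricter cell limits (5% mitochondrial UMIs, or 1000 UMIs with 500 genes), doublets kept, resolution 2, members among the variable genes, thinning to 1000 UMIs, TMM factors (edgeR 4.0.16, R 4.3.3), totals without immunoglobulin, equal weight per cell, the highest cell left out, no UMI minimum and other gates.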

Additional observations from a re-analysis of the deposited data

Results flagged for a closer look

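Cd36, Cd9 and Plac8 were each called higher in knock-in cells of some cell groups and lower in those of others, with each counting interval on its own side of 0. Cd36 had a log2 ratio of knock-in over wild-type of -0.54 in gated cells, -0.35 in B-like cells and -0.38 in cluster 6, but 0.54 in cluster 11 (79 UMIs in knock-in and 51 UMIs in wild-type cells) and 0.50 in monocyte-like cells (85 UMIs in knock-in and 82 UMIs in wild-type cells). The lower bounds for Cd36 in cluster 11 and monocyte-like cells, 0.02 and 0.04, lie close to 0. For Cd9 the log2 ratio was -0.76 in neutrophil-like cells and -0.65 in unnamed cluster 14. But it was 0.43 in T-like, 0.50 in monocyte-like and 1.01 in plasma cell-like cells, 0.62 in cluster 1 and 0.55 in cluster 11. In ungated B-like cells, from which the gate had removed cells by Cd9 itself, it was 0.42. Over all B-like cells the log2 ratio of Cd9 was 0.10, not called. For Plac8 it was -1.05 in neutrophil-like cells, but 0.74 in T-like, 0.39 in dendritic-like and 1.72 in plasma cell-like cells and 0.33 in cluster 2. With 1 library per genotype the differences between these cell groups were not tested. The share of all genes called in opposite directions over these groups was not counted, so these genes are not set apart from others. Over B-like cells alone 11.1% of genes were called higher and 15.5% lower.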

How the results depend on the processing

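No paired analysis was possible because each genotype has 1 library, and for the same reason no library could be left out. The log2 ratio of gated shares, -0.34, was -0.072 with a 5% mitochondrial limit and -0.087 with that limit and the clusters kept, -0.88 with at least 3 gate genes, and -0.73, -1.09 and -1.23 with Cr2 and Myof, Cd1d1 and Myof, or Cd9 and Myof as the gate. It stayed below 0 in each alternative run. Of the readouts, 3 were called in gated cells, but 0 after thinning to 1000 UMIs, where 1 of 6 had enough UMIs, or with the Cd9 and Myof gate, and 1 with at least 3 gate genes, with Cd1d1 and Cd9, with Cd1d1 and Myof, in cluster 6 alone or at 5% to 10% mitochondrial UMIs. The call was of a higher level with at least 3 gate genes, with Cd1d1 and Cd9 and with Cd1d1 and Myof, and 1 of the calls was of a higher level with Cr2 and Cd9 and with Cr2 and Myof. The gene called higher was Plac8 each time, at 0.37, 0.42, 0.43, 0.36 and 0.32 in the order given. In B-like cells 3 members were called, but 5 after thinning and 1 with TMM factors. In all kept cells 4 were called, but 2 with either 5% limit, with TMM factors or without immunoglobulin. Of the 5 readouts higher in gated cells, 2 reached that limit in both libraries within cluster 6. The Notch list had 8 calls, but 2 at 5% to 10% mitochondrial UMIs. Among called values, signs turned for S1pr3 in all kept cells with either 5% limit (0.10), Notch2 gated over ungated in wild-type cells with the Cr2 and Cd1d1 gate (0.19), Cd36 in gated cells with the Cd1d1 and Myof gate (0.15), Dtx1 gated over ungated in wild-type cells of cluster 6 (-0.11) and Dnase1l3 in gated cells at 5% to 10% mitochondrial UMIs (0.049). The cause was not tested. Of the recomputed counts and shares 91 stayed close to the value reported and 21 moved further, and of the values of single genes 481 stayed close, 130 moved further and 6, all of called values, turned. Counting uncalled values, 28 of 617 had the other sign. Notch2 in gated cells, knock-in over wild-type, had the sign reported in 14 of 21 alternatives (-0.39 to 2.07), S1pr3 in gated cells in 16 of 20, Cd9 in B-like cells in 10 of 12 and in all kept cells in 8 of 12. Myof in B-like cells lay between -0.71 and -0.48 in all 12 alternatives run on it. The cluster 6 split and the versions with clusters kept were chosen after seeing the data.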
